A study of Mus musculus with 4 samples.

Results

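Chromosome 10 carried 800 of the 7699 H3K36me2 peaks called with melatonin and 853 of the 8361 called without it, or 1653 of 16060 peaks in all. They were chosen by their chromosome, which was itself selected on the number of peaks called there, and were taken from HOMER peak lists made for bone marrow mesenchymal stem cells (MSCs) of the mouse, cultured marrow cells that can form bone, cartilage and fat. One ChIP library came from MSCs given 1 µM melatonin for 24 hours, and its counterpart came from untreated MSCs. Both were immunoprecipitated with an antibody against dimethylated lysine 36 of histone H3, and each was called against its own input library, which had no antibody. The series' design text speaks of old donors, but the labels give no age, strain, sex or number of animals for any group. The labels' treatment text names melatonin for the untreated library too, and the group was taken from its own treatment entry. Peak density and the fullest windows chose what is described here, so both are given without a test. With 1 library per condition there is no replicate check, and every interval below covers counting error only. Positions are given in GRCm38, and below and above a gene mean towards the start and the end of the chromosome. In a population of cells, fewer marked cells and less of the mark per cell cannot be told apart.

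H3K36me2 is written by the NSD methyltransferases and ASH1L, lies over gene bodies and over long stretches between genes, and is known to oppose the spread of the Polycomb mark on lysine 27 of the same histone. It usually forms broad domains, while the lists analysed here hold short regions in which local ChIP tags exceeded input tags. NSD2, the enzyme named in the study's title, is encoded on another chromosome. Chromosome 10 of the mouse holds genes of bone and stroma such as Esr1 (estrogen receptor alpha), Gja1 (connexin 43), Ccn2 (a matricellular growth regulator), Igf1 (insulin-like growth factor 1) and the proteoglycan genes Dcn and Lum.

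Few promoters lay under a peak. Of 1649 promoter sequences of chromosome 10 in the RefSeq table (build GRCm38.p6, 250 bases before to 50 after each start), 9 (0.546%) overlapped a melatonin peak and 4 (0.243%) an untreated peak, against 0.207% and 0.143% of 32851 promoter sequences over the chromosomes of that table. No promoter overlapped a peak in both lists. Of these 13 promoters, 11 belong to noncoding RNA genes. The 1649 sequences belong to 1375 genes, and 829 protein-coding genes of the chromosome have such a sequence. The 2 protein-coding promoters, and 2 noncoding ones from the windows at 37 and 68 Mb described below, are printed from RefSeq in the direction of transcription, with each CG dinucleotide in capitals because promoters rich in CG usually mark starts that are active in many tissues. Epb41l2 encodes a membrane skeleton protein of the band 4.1 family and lies on the plus strand, with its lower end at 25359782. The promoter printed for it (chr10:25408118-25408417) is that of a start inside the gene, under a melatonin peak at 25407759 to 25408759. Slc17a8, which encodes a vesicular glutamate transporter, starts on the minus strand (chr10:89621200-89621499) under a melatonin peak at 89621058 to 89622315. The noncoding gene 4930545H06Rik starts on the minus strand (chr10:68321093-68321392) under a melatonin peak at 68320348 to 68321683. The noncoding gene Gm31202 starts on the minus strand (chr10:37364312-37364611) under an untreated peak at 37364099 to 37365099.
Epb41l2: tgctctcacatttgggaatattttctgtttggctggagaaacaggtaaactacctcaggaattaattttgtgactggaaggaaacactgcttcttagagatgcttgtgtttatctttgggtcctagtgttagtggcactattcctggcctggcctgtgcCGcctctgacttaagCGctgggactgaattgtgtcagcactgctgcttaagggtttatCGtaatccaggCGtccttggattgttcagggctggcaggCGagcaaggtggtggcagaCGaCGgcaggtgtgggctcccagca
Slc17a8: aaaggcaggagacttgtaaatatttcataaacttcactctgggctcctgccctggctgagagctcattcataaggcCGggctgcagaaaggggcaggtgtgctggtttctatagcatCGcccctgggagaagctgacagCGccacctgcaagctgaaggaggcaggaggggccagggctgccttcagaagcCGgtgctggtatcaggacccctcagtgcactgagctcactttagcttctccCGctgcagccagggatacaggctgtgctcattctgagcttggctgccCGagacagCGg
4930545H06Rik: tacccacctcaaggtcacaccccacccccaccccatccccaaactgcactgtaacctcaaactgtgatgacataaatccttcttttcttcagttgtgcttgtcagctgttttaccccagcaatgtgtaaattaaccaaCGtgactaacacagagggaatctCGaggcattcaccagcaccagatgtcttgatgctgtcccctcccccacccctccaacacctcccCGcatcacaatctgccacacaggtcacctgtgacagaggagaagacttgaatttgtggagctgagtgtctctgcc
Gm31202: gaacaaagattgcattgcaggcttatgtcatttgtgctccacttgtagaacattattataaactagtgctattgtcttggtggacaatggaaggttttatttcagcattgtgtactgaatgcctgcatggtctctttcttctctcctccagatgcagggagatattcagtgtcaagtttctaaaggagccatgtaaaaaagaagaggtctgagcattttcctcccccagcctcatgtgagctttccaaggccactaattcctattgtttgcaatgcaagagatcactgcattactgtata

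The Epb41l2 and Slc17a8 promoters each hold 7 CG dinucleotides, the 4930545H06Rik promoter holds 3, and the Gm31202 promoter holds 0. The letters CG read the same on both strands, and 12 of the 13 promoters under a peak had at least 1, as did 95% of all 1649. The median was 5 CG per promoter under a peak and 7 over the chromosome. Only 1 of the 13, that of the noncoding gene 1700020N01Rik, had 10 or more, where 42.9% of the chromosome's promoters did. These counts are a description of 13 sequences, most of them from noncoding genes. Gene type was not matched in the comparison with all 1649.

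Chromosome 10 held 6.28 melatonin peaks and 6.69 untreated peaks per Mb between its outermost annotated genes, where the other chromosomes together held 2.78 and 3.02. It made up 10.4% of the melatonin list (95% Wilson interval 9.73 to 11.1) and 10.2% of the untreated list (9.57 to 10.9). Melatonin peaks divided by untreated peaks gave 0.938 (exact 95% interval 0.851 to 1.03) on chromosome 10, an interval that includes 1, against 0.919 (0.889 to 0.95) on the other chromosomes together. Among peaks with a fold over input of at least 6, chromosome 10 held 236 with melatonin and 216 without, a ratio of 1.09 (0.905 to 1.32), against 1.15 (1.08 to 1.22) over all chromosomes. The ratio thus lay below 1 at the authors' threshold and above 1 at the stricter one, on this chromosome as over the genome. On chromosome 10 both intervals include 1, and each fold rests on its own library's input.

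In fold, tag count and width, all bounded below by the calling thresholds, the peaks were close to those of the other chromosomes. Their median fold over input, the authors' ratio of ChIP to input tags within a peak, was 5.11 with melatonin and 4.98 without, against 5.11 and 4.87 elsewhere. The normalised tag count, in ChIP tags per 10000000 total tags, had a median of 13.4 per peak with melatonin (range 10.2 to 31.7) and 14 without (11 to 37.9). Of the chromosome 10 peaks, 76.5% with melatonin and 77.5% without had the smallest possible width of 1000 bp, against 79.5% and 79.9% elsewhere. Input tags within peaks had a median of 3 per kb with melatonin and 3.5 without, as on the other chromosomes. Position differed more, while spacing restates the peak density for which the chromosome was selected. The median gap to the next peak of the same list was 35.0 kb with melatonin and 34.7 kb without, against 68.9 and 54.0 kb elsewhere. On chromosome 13, also dense in peaks, the median gaps were 40.4 kb with melatonin and 27.0 kb without. Protein-coding gene bodies held 20.8% of the chromosome's melatonin peaks (Wilson interval 18.1 to 23.7) and 19.3% of its untreated peaks (16.8 to 22.1), where 29.3% and 28.0% of all peaks in the 2 lists did. From a chromosome 10 peak to the closest protein-coding gene the median was 66.2 kb in the melatonin list and 81.7 kb in the untreated list, against 22.5 and 30.7 kb elsewhere. Long distances were not particular to chromosome 10: the medians were 52.8 and 65.9 kb on chromosome 13, and 26.7 and 29.6 kb on chromosome 2. On chromosome 13, with 5.92 melatonin and 7.48 untreated peaks per Mb, 26.2% of melatonin peaks and 22.3% of untreated peaks lay in coding gene bodies, and on chromosome 2 these were 31.9% and 32.4%. The Wilson intervals treat peaks as independent, which clustered peaks are not.

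**Figure D1:**
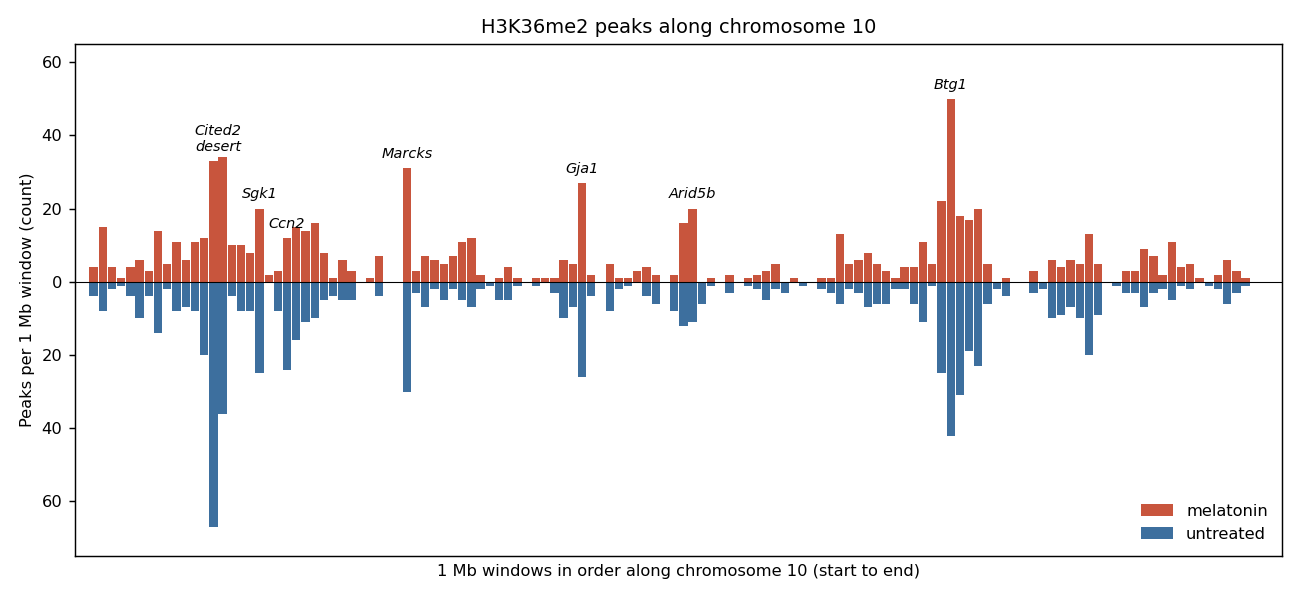
Number of peaks in each 1 Mb window (bars, 1 per window, in order along chromosome 10), upwards for the melatonin library and downwards for the untreated library, with a gene of 7 dense windows or stretches named. The tallest bars are the 50 melatonin peaks in the window that holds Btg1 and the 67 untreated peaks in the window before Cited2.

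Peak counts were uneven along the chromosome. Over 128 windows of 1 Mb, the median was 4 peaks per window in each library and the maximum 50 with melatonin and 67 without, while 14 windows had no peak in either list. The fullest 13 windows of each list held 40.5% of the melatonin peaks and 45.5% of the untreated peaks of the chromosome. Over all chromosomes the fullest 262 of 2623 windows of each list held 47.2% and 50.3%, so the shares on chromosome 10 were not above those of the genome. The genome's windows had a median of 1 peak in each library, so these shares do not compare windows of like density. Across these windows the 2 libraries' counts gave Pearson's r = 0.88 and a Spearman rank correlation of 0.83, given as a description because neighbouring windows share their surroundings and both lists depend on the same genome's mappability and base composition. The counts did not rise with gene density. The Spearman rank correlation between peaks and protein-coding genes per window was 0.032 with melatonin and -0.113 without, and Pearson's r was -0.186 and -0.198. The 13 windows from 71 to 84 Mb touch 275 of the chromosome's 1001 protein-coding genes and had 16 peaks with melatonin and 22 without. In the fullest 10 windows, which touch 46 protein-coding genes, 5.24% of the 267 melatonin peaks (Wilson interval 3.15 to 8.61) and 5.47% of the 329 untreated peaks (3.49 to 8.48) lay in a coding gene body. In the other 118 windows these shares were 28.5% and 28.1%. The dense windows were thus dense outside protein-coding genes, while some of their peaks lay in noncoding genes. These shares were not set against the coding gene length in each set of windows. The fullest window, from 16 to 17 Mb, overlaps no protein-coding gene.

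**Figure D2:**
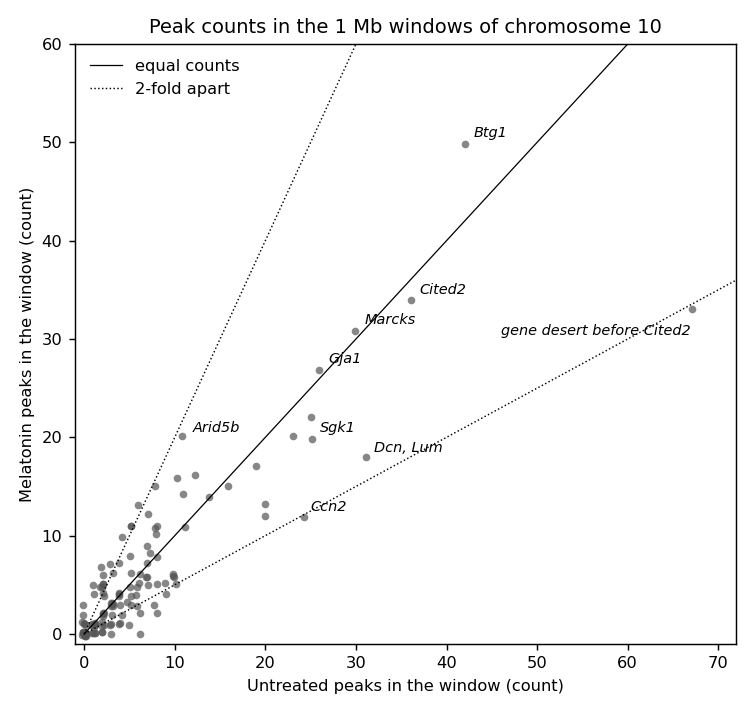
Each point is a 1 Mb window of chromosome 10 (128 windows, moved by up to 0.25 peaks at random so that points can be told apart), with untreated peaks on the horizontal axis and melatonin peaks on the vertical axis. The solid line marks equal counts and the dotted lines counts 2-fold apart; most full windows lie near the solid line, while the gene desert before Cited2 lies at 33 melatonin peaks and 67 untreated peaks.

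The stretch from 16 to 18 Mb, which runs up to Cited2, was the fullest pair of neighbouring windows when both lists were added. In the melatonin list alone the pair from 95 to 97 Mb was fuller, with 22 and 50 peaks. The stretch from 16 to 18 Mb held 67 peaks with melatonin and 103 without, a ratio of 0.650 (exact interval 0.471 to 0.893). Nearly all of the difference came from its lower part: the window from 16000001 to 17000000 had 33 melatonin peaks (exact 95% Poisson interval 22.7 to 46.3) and 67 untreated peaks (51.9 to 85.1), a ratio of 0.493 (0.314 to 0.758). The window from 17000001 to 18000000 had 34 and 36. In 9 of the 10 bins of 100 kb between 16 and 17 Mb the untreated library had more peaks, so the difference was spread over the window and did not sit at a single site. Summed ChIP tags over the called regions were 497 with melatonin and 1069 without per 10000000, over 36.4 kb and 75.2 kb called. The median per peak was 14.1 with melatonin and 14.4 without, values that the calling thresholds hold close to their floor, so they do not compare the signal per region. This window was picked for its counts. Of 85 chromosome 10 windows with 5 or more peaks in the 2 lists together, 13 (15.3%) had at least 2-fold fewer peaks with melatonin and 16 (18.8%) at least 2-fold more, where the background over all chromosomes was 19.7% and 15.3% of 987 windows. With the same number of peaks per list, 8 windows had at least 2-fold fewer and 16 at least 2-fold more, of 83. No background over all chromosomes is given for that setting, so these 2 counts show no excess particular to chromosome 10. The main shares are close to the background, and 11 of the 29 windows had 10 or more peaks. Without the window from 16 to 17 Mb, a setting chosen after seeing the data, the chromosome's ratio was 0.976 (0.882 to 1.08).

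No protein-coding gene overlaps the window from 16 to 17 Mb. It holds 4 annotated pseudogenes and the lower end of the noncoding RNA gene Gm20125, which spans 16951094 to 17095782 and had 5 peaks with melatonin and 13 without. The nearest coding gene on the lower side is Nmbr, a receptor gene for neuromedin B, which ends 1229 kb before the window. On the upper side lies Cited2, a short gene for a co-regulator of transcription that binds CBP and p300, at 17723228 to 17725674. Cited2 itself had no peak in its body or flanks in either list, and the nearest peaks lay 15.8 kb away with melatonin and 3.03 kb without. Within 500 kb below Cited2 there were 20 melatonin and 23 untreated peaks, and within 500 kb above it 6 and 5, so the gene stood near the upper edge of the cluster. The noncoding gene Gm32543, between 17512080 and 17680892, had 7 peaks with melatonin and 8 without. The other coding genes of this window are Txlnb, a taxilin gene with 1 melatonin peak and 0 untreated peaks, and Heca, which had none in either list, as had Abracl just beyond it.

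The window from 37 to 38 Mb held 31 melatonin peaks (21.1 to 44.0) and 30 untreated peaks (20.2 to 42.8). Its coding genes sit at its lower end. Hdac2, a class I histone deacetylase gene, ends at 37001889, and Marcks, which encodes an actin-binding substrate of protein kinase C, lies at 37133243 to 37138926. Neither had a peak in either list. Almost the whole cluster lay on the upper side of Marcks, where the 500 kb next to the gene held 21 melatonin and 24 untreated peaks, against 2 and 0 in the 500 kb below it. The nearest coding gene above the window, Rfpl4b, is 821 kb away, and the nearest below it, the heparan sulfate sulfotransferase gene Hs3st5, had no peak in either list. Within the cluster, the bin from 37300001 to 37400000 was the fullest, with 9 melatonin and 7 untreated peaks. It holds the noncoding genes Gm26535 and Gm31202, and the start of Gm31202 is the untreated-peak promoter printed above. The median fold was 5.43 with melatonin and 5.92 without.

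In the window from 56 to 57 Mb the peaks also lay mostly above a gene. It held 27 melatonin peaks (17.8 to 39.3) and 26 untreated peaks (17 to 38.1). Gja1, the connexin gene of the gap junctions that join osteoblasts and osteocytes, lies at 56377300 to 56390419 and had no peak in either list. The 500 kb above it held 17 peaks in each library, and the 500 kb below it 4 with melatonin and 0 without. The nearest coding gene above the window is Hsf2, a heat shock factor gene, at 484 kb. Here 6 melatonin peaks overlapped 6 untreated ones, of which 3 lay in the bin from 56900001 to 57000000. That bin held 7 melatonin and 9 untreated peaks and includes the noncoding gene Gm36827, with 3 peaks in each library. Tbc1d32, a ciliary gene at the lower end of the window, had 2 peaks with melatonin and 0 without, and Msl3l2, a gene inside the Tbc1d32 span, had 1 and 0.

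**Figure D3:**
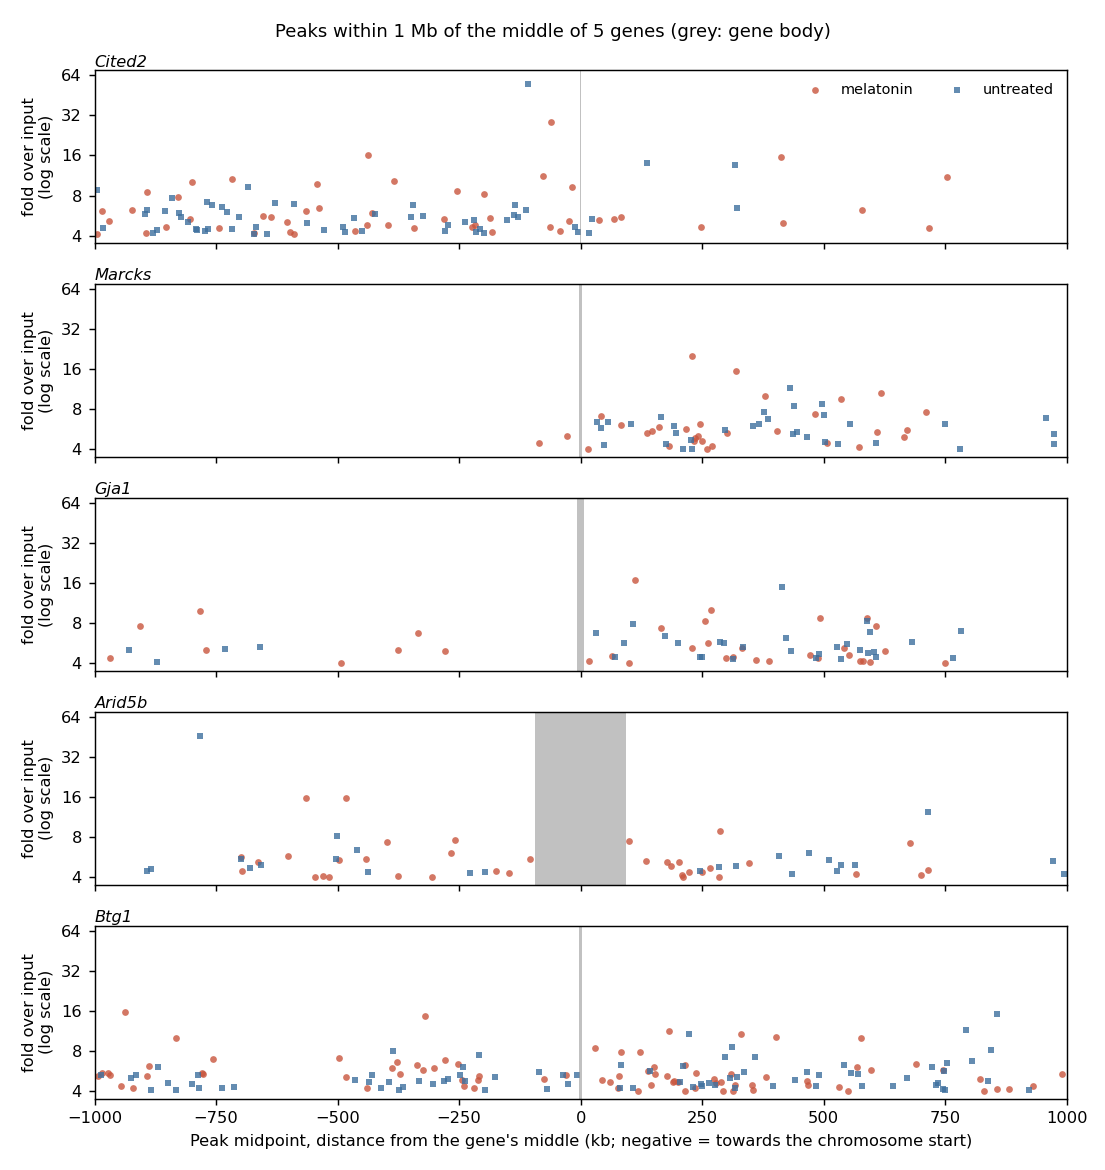
Peaks of the melatonin library (circles) and the untreated library (squares) within 1 Mb of the middle of Cited2, Marcks, Gja1, Arid5b and Btg1, by distance in kb and by the authors' fold over input on a log scale, with the gene body in grey. Peaks cluster on the lower side of Cited2, on the upper side of Marcks and Gja1 and on both sides of Arid5b and Btg1, and none falls in the body of these 5 genes.

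The window from 68 to 69 Mb had 20 melatonin peaks (12.2 to 30.9) and 11 untreated peaks (5.49 to 19.7), a ratio of 1.82 whose interval of 0.830 to 4.20 includes 1. Arid5b, which encodes a DNA-binding partner of a histone demethylase and is known for its part in fat cell formation, covers 187 kb of this window and had no peak in either list. Within 100 kb of its ends there were 3 melatonin peaks below and 4 above, and 0 untreated peaks on either side. The bin with the largest difference was that from 68300001 to 68400000, where there were 6 melatonin and 0 untreated peaks. The start of the noncoding gene 4930545H06Rik, printed above, lies in that bin. Cabcoco1, a gene for a ciliary calcium-binding protein, had 5 peaks with melatonin and 3 without, and Tmem26, a membrane protein gene used as a marker of beige fat cells, had 1 in each. Rtkn2 had 2 with melatonin and 1 without, and Zfp365, the next gene below, had none in either list. Rhobtb1, 151 kb beyond the window, had 0 with melatonin and 3 without. The neighbouring window from 67 to 68 Mb held 16 and 12 peaks, so that the stretch from 67 to 69 Mb had 36 with melatonin and 23 without, a ratio of 1.57 (0.903 to 2.77).

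A longer dense stretch ran from 95 to 100 Mb, with 127 melatonin peaks and 140 untreated peaks, or 15.9% and 16.4% of the chromosome's peaks in 5 windows. Its centre, from 96 to 97 Mb, was the fullest window of the chromosome in the melatonin list, with 50 peaks (37.1 to 65.9), and had 42 in the untreated list (30.3 to 56.8). Btg1, an antiproliferative gene at 96617001 to 96622813, had no peak in either list, and the nearest lay 25.4 kb away with melatonin and 3.57 kb without. Within 500 kb there were 19 melatonin and 23 untreated peaks below Btg1 and 35 and 24 above it. Eea1, which encodes an endosomal tether at the window's lower edge, had none, and the predicted coding gene Gm46240 had 2 with melatonin and 1 without. Nudt4, the nearest coding gene below, had none in either list. The noncoding genes 4930459C07Rik, Gm40747, Gm33782 and Gm33843 had 3, 3, 2 and 2 peaks with melatonin and 3, 4, 3 and 4 without, and the first pair overlap, so that they share peaks.

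The next window, from 97 to 98 Mb, had 18 melatonin peaks and 31 untreated peaks, a ratio of 0.581 (0.306 to 1.07). It holds a row of small leucine-rich proteoglycan genes, whose products bind collagen fibrils. Dcn, the decorin gene, had 2 peaks with melatonin (highest fold 4.17) and 1 without (fold 15.1), which lay in its flank at 1.93 kb. This untreated peak overlapped 1 of the 2 melatonin peaks (fold 4.13) by 914 bp. Their normalised tag counts were 13.4 with melatonin and 17.8 without. Epyc, the epiphycan gene of cartilage, had 1 and 2. Kera, the keratocan gene, had 1 with melatonin (fold 5.36) and 0 without, and Lum, the lumican gene, had none in either list. In the window from 99 to 100 Mb, with 20 and 23 peaks, Dusp6, a phosphatase gene of the ERK pathway, had none in either list. Beyond it, Kitl, the stem cell factor gene of the marrow niche, had 0 with melatonin and 1 without (fold 9.61), the nearest melatonin peak lying 25.3 kb away.

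Overlap between the libraries was low, and it was highest where peaks were dense. Of the chromosome 10 peaks, 62 with melatonin (7.75%, Wilson interval 6.09 to 9.81) overlapped an untreated peak by at least 1 bp, and 61 without melatonin (7.15%, 5.61 to 9.08) overlapped a melatonin peak. The background over all chromosomes was 6.12% and 5.60%, so the shares were a little above it while the melatonin interval includes it and the untreated one begins at 5.61%. Over the fullest 10 windows 14.6% of melatonin peaks (10.9 to 19.3) and 11.9% of untreated peaks (8.79 to 15.8) overlapped, and in the other 118 windows 4.32% (2.89 to 6.39) and 4.20% (2.79 to 6.27). The dense windows also had more of their length called in both lists, and the part of this in these shares was not tested. Most peaks had some peak of the other list nearby: 87.8% of melatonin peaks had an untreated peak within 100 kb and 39.1% within 10 kb, and 86.5% and 38.1% of untreated peaks had a melatonin peak within those distances. Over all chromosomes these shares were 78.2% and 30.8% with melatonin and 78.9% and 29.2% without. On chromosome 13 they were 90.1% and 40.6% with melatonin and 88.5% and 37.5% without. Such shares rise with peak density, for which chromosome 10 was selected, so they do not measure agreement between the libraries.

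The 62 overlapping pairs had a median of 691 bp in common, and 20 had 900 bp or more. Of these pairs, 41 were intergenic by the melatonin peak, 12 lay in the body of a noncoding gene or pseudogene and 8 in a coding gene body. The normalised tag count was higher with melatonin in 29 pairs and lower in 32. The pair with the highest mean fold percentile lay in the noncoding gene Gm36827, where the melatonin peak at 56972779 to 56974093 had a fold of 8.7 and the untreated peak at 56973149 to 56974149 a fold of 8.33. The next lay in the desert before Cited2, where the melatonin peak at 16831944 to 16832944 had a fold of 8.48 and the untreated peak at 16831764 to 16832764 a fold of 6.23, and 2 more of the highest 10 pairs fell between 16 and 17 Mb. A pair 79.7 kb above Btg1 had folds of 7.83 with melatonin and 6.25 without. A pair 39.1 kb above Marcks shared 1171 bp, with folds of 7.1 with melatonin and 5.84 without. Among the highest 10 pairs, the coding genes that held one were Armc2, a ciliary gene (folds 7.83 with melatonin and 5.86 without), and Esr1.

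**Figure D4:**
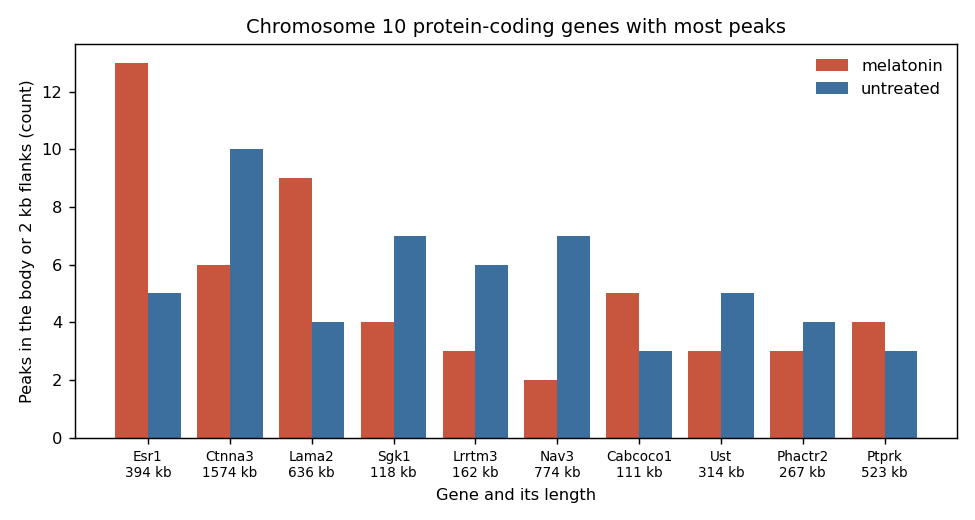
Peaks in the body or 2 kb flanks of the 10 protein-coding genes of chromosome 10 with most peaks in the 2 libraries together, with each gene's length under its name. Esr1 had 13 melatonin and 5 untreated peaks and Lama2 had 9 and 4, while Ctnna3 had 6 and 10 and Nav3 had 2 and 7; Lrrtm3 lies inside Ctnna3, so its peaks count for both.

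Of 1001 protein-coding genes on chromosome 10, 88 (8.79%) held or lay within 2 kb of a melatonin peak and 94 (9.39%) did so for an untreated peak, against a background of 5.94% and 5.71% of 21887 genes. Both libraries marked 52 genes, 36 had a peak with melatonin alone and 42 without melatonin alone. These are 5.19%, 3.60% and 4.20% of the chromosome's coding genes, against 2.75%, 3.18% and 2.96% of all coding genes. Genes with a peak in both lists had a median length of 197 kb, those with a peak in neither list 14.5 kb. The part of gene length in these counts was not tested.

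Esr1, which encodes the estrogen receptor that protects bone, had the most peaks of the chromosome's protein-coding genes. Among noncoding genes, Gm15270 beside Ccn2 had 7 with melatonin and 12 without. Esr1 had 13 peaks with melatonin, with folds of 4.06 to 15.65 and normalised tag counts of 11.6 to 26.8. Without melatonin Esr1 had 5, with folds of 4.14 to 6.59 and tag counts of 13.3 to 15.9. The melatonin peaks ran from 3.40 kb after the gene's lower end, where transcription begins, to 75.2 kb before its upper end, and 4 of them were wider than 1000 bp. The untreated peaks ran from 54.0 kb after the lower end to 162 kb before the upper end, and all had the smallest width. A single pair overlapped, at 4808482 to 4810345 with melatonin and 4809242 to 4810242 without. At a fold of at least 6 the counts were 5 with melatonin and 1 without, a threshold at which all chromosomes held 2317 and 2017 peaks. The fold of 15.65 rested on 1 input tag. Esr1 was picked for its number of peaks, and its counts are given without an interval.

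Most of the other genes with many peaks were long. Lama2, the laminin alpha chain gene of muscle and nerve basement membranes, had 9 melatonin and 4 untreated peaks, with median folds of 6.58 and 5.42 and no overlap. Ctnna3, an alpha catenin gene, had 6 with melatonin and 10 without. Lrrtm3, a gene of a synaptic adhesion protein that lies inside Ctnna3, had 3 and 6 of these. Nav3, a neuron navigator gene, had 2 and 7. Sgk1, a kinase gene induced by serum and glucocorticoids, had 4 and 7 within 118 kb, the highest number per length of the 10 genes. Most of the remaining cluster in the Sgk1 window, which held 20 melatonin and 25 untreated peaks, lay below the gene, with 16 and 17 peaks in the 500 kb on that side and 0 in both libraries above it. Ust, a sulfotransferase gene for dermatan and chondroitin sulfate, had 3 and 5, Phactr2, a regulator gene of actin and phosphatase 1, had 3 and 4, and Ptprk, a receptor phosphatase gene, had 4 and 3.

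Lists of chromosome 10 genes drawn up by role are set against the 8.79% of the chromosome's coding genes with a melatonin peak and the 9.39% with an untreated peak. Of 25 genes of matrix and bone, 8 had a peak with melatonin and 7 without, and 6 had one in both, a larger share than over all coding genes in a list chosen with earlier results known. Beyond those above, Enpp1, whose product makes the mineralisation inhibitor pyrophosphate, had 1 peak in each library (folds 5.22 with melatonin and 4.74 without), and Col18a1, a basement membrane collagen gene, had 2 with melatonin and 0 without. Ccn2 had none, although its window from 24 to 25 Mb held 12 melatonin and 24 untreated peaks, and Enpp3 in the same window had 0 and 4. Igf1 had none, and its closest peaks were 10.4 kb off in the melatonin list and 5.42 kb off in the untreated list. Of 17 genes of neurons and cell junctions, most of them long, 12 had a peak with melatonin and 13 without, and 11 had one in both. Pcdh15, a protocadherin gene of hair cells, had 1 peak in each (fold 15.2 with melatonin, and 4.61 without, in its flank), Utrn, the utrophin gene, had 2 with melatonin and 0 without, and Lin7a and Ank3, genes of junction and membrane scaffolds, had 0 with melatonin and 3 and 2 without.

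Of 12 genes of chromatin enzymes and factors, only Tet1, a 5-methylcytosine oxidase gene, had a peak, with melatonin alone (fold 5.07), which is near the share over all coding genes, and Hdac2, Sirt1, Hmga2 and Dot1l had none in either list. Of 15 genes of senescence, stress and the cell cycle, Cdk17 had 1 peak with melatonin alone (fold 4.89) and Cdk19 had 1 without melatonin alone (fold 6.09), while Foxo3, Mdm2 and Cdk4 had none. Of the 2 clock genes, Cry1 had a peak in each library and Timeless in neither. None of 17 genes of immune cells and cytokines, which include Lyz2, Elane and Ifng, and neither of 2 endothelial genes, Ptprb and Plxnc1, had a peak in either library. Over all chromosomes, markers of stromal cells had a peak in 1 of 8 genes with melatonin and 3 of 8 without, myeloid markers in 2 and 0 of 6, and endothelial markers in 3 and 1 of 6, where 5.94% and 5.71% of all coding genes had one. A peak of this mark does not measure expression, so the labelled cell type could not be checked from these lists.

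The highest folds of the chromosome stood at regions with almost no input tags. With melatonin the highest was 42.61 at 54784037 to 54785037, in a desert 707 kb from Man1a, a mannosidase gene. The next lay 11.2 kb from Utrn (32.17), in Sash1 (31.3), 60.4 kb from Adgb (31.3) and 103 kb from Akap7 (29.56). All of these rested on 0.5 input tags. Without melatonin the highest was 55.11 at 17616353 to 17617606, in the noncoding gene Gm32543 and 106 kb from Cited2. The next were nearest to Nrbf2 (46.14), Tmem200a (43.58), Prdm1 (43.58) and Frk (42.3), and all of these rested on 0.4 input tags. None of these 10 peaks overlapped a peak of the other list. Of the 3 widest regions of each list, several lay in the clusters named above. With melatonin these regions measured 2384 bp in the noncoding gene Gm28905, 2227 bp at 56957898 to 56960125 in the cluster above Gja1, and 2063 bp in Lama2. Without melatonin they measured 2668 bp at 96977087 to 96979755 in the cluster above Btg1, 2637 bp at 56676956 to 56679593 above Gja1, and 2549 bp at 17301041 to 17303590 below Cited2. The region below Cited2 also had the highest normalised tag count of the chromosome, 37.9, and its nearest melatonin peak lay 5.56 kb away.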

How the data were processed

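Per the file headers, the authors ran HOMER findPeaks with its histone settings on the 2 ChIP libraries one by one, each beside its own input and with no pooling. A called region had at least 4-fold more ChIP than input tags and a Poisson p against input of at most 0.0001, and windows of 1000 bp were stitched. The libraries held 14180076.5 tags with melatonin and 13198427.5 without, per the file headers, and peaks held 1.12% and 1.24% of them. The submitters' processing notes name BWA 0.7.13, Picard 1.126, MACS2 2.1.0 and the build mm39. The deposited lists' names carry the barcodes of the input libraries while their headers name the ChIP tag directories, which match the sample titles, and each list was assigned by its GEO sample record. The HOMER version is not given in the sources used here. Peaks on chromosomes 3 and 7 reach 159805034 and 145328623, past the ends of those chromosomes in mm39, so coordinates were read as GRCm38.

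The deposited columns are the normalized tag count and the ChIP and input tags (signal), the findPeaks score, the fold over input (a ratio), the Poisson p-value, not adjusted, and the region size in bp. Scores and the clonal ratio were not used. The authors' folds describe or rank peaks within a list, and they also set the stricter threshold of at least 6.

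Peaks went to 1 Mb windows by midpoint. Genes came from RefSeq for GRCm38.p6, without mitochondrial genes, and were matched by symbol; of 1001 coding genes on chromosome 10, 829 had a promoter sequence. Intervals are 95% Wilson (shares), exact Poisson (counts) and exact binomial (ratios), for counting error only, since tags are not independent molecules. Counting steps were tested on simulated data. Python 3.11.15, pandas 2.3.3 and scipy 1.17.1 were used.

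The members, windows and gene lists were chosen with earlier results of these data known. Named are genes in or next to the windows from 16, 17, 37, 68 and 96 Mb, the 10 with most peaks, those at the 10 overlapping pairs of highest mean fold percentile, those nearest the 5 highest folds and 3 widest peaks per list, and list members with a peak. Others are named after their values were seen. Of the lists' members, 1 was not on chromosome 10 and was dropped.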

Additional observations from a re-analysis of the deposited data

How the results depend on the processing

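No paired analysis was possible because each condition had 1 library. With a fold over input of at least 6, chromosome 10 held 236 peaks with melatonin and 216 without, a ratio of 1.09. The overlap then fell to 1.69% of melatonin and 1.85% of untreated peaks, 43 coding genes had a melatonin peak and 38 an untreated one, and 12 of 32 windows with 5 or more peaks were at least 2-fold apart. Requiring an overlap that covers at least 50% of both peaks gave 4.12% and 3.87%, and edges within 1 kb gave 12.1% and 11.3%. For these overlap, gene and window values no share over all chromosomes at the same setting is given. They therefore do not show whether the changes are particular to chromosome 10. Windows moved by 0.5 Mb put 15.5% of melatonin and 18.1% of untreated peaks in the 5 windows from 16, 17, 37, 68 and 96 Mb, against 21% and 21.8%, and left 19 windows at least 2-fold apart instead of 29. With at least 10 peaks per window 11 of 54 windows were that far apart. The other 41 of 57 recomputed summary values stayed within their interval or within 1.5 times the count, among them all those at a p of at most 1e-05 or with the same number of peaks per list, where the ratio was 0.905 (0.820 to 0.999) and 0.988. Leaving out the window from 16 to 17 Mb, a setting chosen after seeing the data, gave 0.976. At a fold of at least 6 the window from 16 to 17 Mb held 11 melatonin and 19 untreated peaks. With the same number of peaks per list the windows at least 2-fold apart were 24 of 83, 16 with more and 8 with fewer melatonin peaks, against 16 and 13. No share of windows over all chromosomes is given for any of these changed settings. What depth limits in these lists was not tested.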
